A study of Mus musculus with 10 samples.

Results

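Stub1, Dnajc7, Hsp90b1, Tcp1, Cct7 and Pfdn2 encode chaperones, parts of chaperones or proteins that work with them, as STI1 does. Their transcripts were compared in cortex between wild-type mice and mice with an STI1 that lacks its TPR1 domain. The 6 genes were chosen as HSP90, co-chaperone, chaperonin and prefoldin genes whose transcripts can be read in these data. They come out of 7387 genes that can be read in the same way, and all 6 were among the 2020 that passed the filter on low counts. The choice used position and function and not the genotype difference, but was made with earlier results of these data known. With all 10 libraries, none of the 6 differed between the genotypes at p under 0.05 in edgeR, before or after adjustment.

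RNA was taken from a piece of cortex, cut from part of 1 hemisphere, of each of 10 mice on a C57BL/6 background, 1 library per mouse. The 5 wild-type animals (wt/wt) were 442 to 663 days old. The 5 animals labelled dTPR-/dTPR- carry the allele of Stip1, the gene of STI1, without the TPR1 domain on both chromosomes, and were 541 to 630 days old. No treatment, sex or litter is given in the sources used here, and the values cover 1 allele in 1 tissue. In bulk tissue, fewer cells of a type and less RNA per cell cannot be told apart.

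STI1 is a scaffold: its TPR1 domain holds the tail of HSP70 and its TPR2A domain holds the tail of HSP90, so that a client protein can pass from one chaperone to the other. Other proteins with TPR domains compete for the same tails, among them CHIP, encoded by Stub1, which attaches ubiquitin to clients that are to be degraded, and DNAJC7, which binds both chaperones and stimulates HSP70 through its J domain. Hsp90b1 encodes GRP94, the HSP90 of the endoplasmic reticulum, which ends in a retention signal and is not held by STI1. Tcp1 and Cct7 encode subunits of the chaperonin TRiC, a closed ring that folds actin and tubulin, and Pfdn2 encodes a subunit of prefoldin, which hands such chains to TRiC.

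The genes are not read at their own identifiers. In these files 94.2% of counts lie at IDs with an exon opposite to an exon of another gene. The counts of assigned IDs, 88.0% of all counts, were read as transcripts of that other gene. An ID was assigned where 1 gene made up 90% or more of the bases opposite to its exons. This reading was inferred from positions and counts and not from reads. It leaves out the chaperones that STI1 binds. Hspa8, the constitutive HSP70 of the cytosol, had 0 counts in all 10 libraries, Hsp90aa1 had 0 to 4 and Hsp90ab1 0 to 7, and none of the 3 faces a counted ID. Stip1 itself had 0 to 8 counts per library and no facing ID either, so neither its level nor the deletion could be checked. Abundant brain transcripts without a facing ID gave the same picture, with 0 to 6 counts for Snap25 and 0 in every library for Eef1a1.

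Each of the 6 genes was therefore seen through a short stretch of its mRNA. Stub1 (ENSMUSG00000039615, chromosome 17, 25830505 to 25833404, minus strand, GRCm38) was counted at Jmjd8, with which it shares 1084 bases, or 42.3% of its exon bases: 433 coding bases and 383 of the 3′ UTR in exons 3 to 7 of 7, and 268 bases found in other transcripts only. Hsp90b1 (ENSMUSG00000020048, chromosome 10, 86690209 to 86705509, minus strand) was counted at the pseudogene 1810014B01Rik through 415 bases, all coding, between exons 12 and 16 of 18. Tcp1 (ENSMUSG00000068039, chromosome 17, 12915701 to 12925067, plus strand) was counted at Acat3 through 571 bases of its last exon, 214 coding and 357 of the 3′ UTR. Dnajc7 (ENSMUSG00000014195, chromosome 11, 100582818 to 100620168, minus strand) was counted at Cnp through 154 coding bases, exon 7 of 14. Pfdn2 (ENSMUSG00000006412, chromosome 1, 171345670 to 171359254, plus strand) was counted at Klhdc9 through 535 bases of its 3′ UTR. Cct7 (ENSMUSG00000030007, chromosome 6, 85451514 to 85468475, plus strand) was counted at Pradc1 through 214 bases of its 5′ UTR, 3.16% of its exon bases. The exons of these IDs also extend beyond the shared bases, for example over 309 bases of Dnajc7 introns at Cnp and 387 of Hsp90b1 introns at 1810014B01Rik. Wholly outside the gene lie 3176 of 3639 exon bases at Cnp, 1825 of 2039 at Pradc1 and 1850 of 2652 at 1810014B01Rik. At Jmjd8 these are 1420 of 2759, at Klhdc9 1023 of 1558 and at Acat3 1409 of 2427. Reads in all these bases are included, and their share of the counts was not tested.

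**Figure D1:**
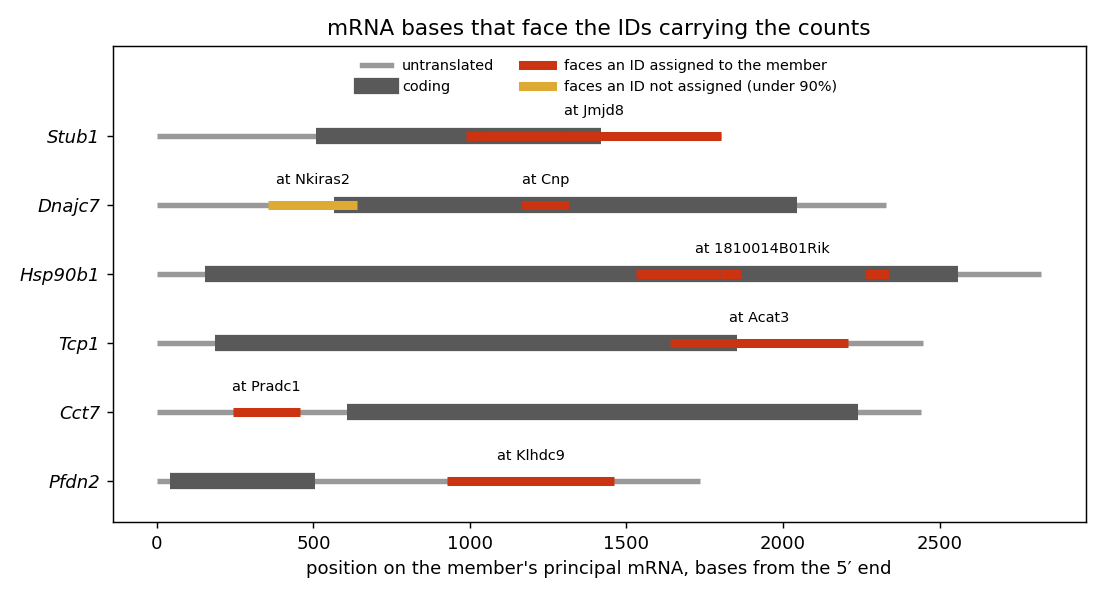
Principal mRNA of each of the 6 genes, drawn to scale in bases from its 5′ end (x axis), with the coding part as a thick bar and the bases that face a counted ID in colour. Stub1, Tcp1 and Pfdn2 are read at or near the 3′ end, Hsp90b1 and Dnajc7 inside the coding part, and Cct7 in the 5′ UTR; the Nkiras2 stretch of Dnajc7 faced an ID that was not assigned to it.

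A coding stretch of each of 4 genes is shown on the strand of the gene, 5′ to 3′, as GENCODE transcripts on GRCm38 give them, because it is in these bases that the transcripts were counted. Nothing is marked in them. The Stub1 stretch is chr17:25830888-25831010. It belongs to the last part of the protein, which carries the U-box, the domain that works as ubiquitin ligase. The Dnajc7 stretch is chr11:100591412-100591565, the Hsp90b1 stretch chr10:86694350-86694619 and the Tcp1 stretch chr17:12924260-12924473.
Stub1: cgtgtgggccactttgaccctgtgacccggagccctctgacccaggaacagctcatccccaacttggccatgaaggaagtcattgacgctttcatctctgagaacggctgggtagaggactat
Dnajc7: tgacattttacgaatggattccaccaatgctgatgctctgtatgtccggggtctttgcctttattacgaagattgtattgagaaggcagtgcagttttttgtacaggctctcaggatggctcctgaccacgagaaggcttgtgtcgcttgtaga
Hsp90b1: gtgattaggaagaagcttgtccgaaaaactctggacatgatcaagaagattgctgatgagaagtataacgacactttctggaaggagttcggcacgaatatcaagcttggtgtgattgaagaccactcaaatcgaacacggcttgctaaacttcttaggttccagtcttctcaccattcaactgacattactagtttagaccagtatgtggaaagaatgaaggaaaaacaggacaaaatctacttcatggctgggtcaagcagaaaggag
Tcp1: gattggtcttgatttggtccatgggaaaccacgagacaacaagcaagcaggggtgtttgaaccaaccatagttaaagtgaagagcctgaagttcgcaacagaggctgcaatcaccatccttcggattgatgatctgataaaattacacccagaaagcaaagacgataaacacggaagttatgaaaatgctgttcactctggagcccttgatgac

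Total counts ran from 667751 to 927242 per library, of which 87.3% to 88.5% were assigned to opposite-strand genes. Levels are given as CPM relative to the assigned counts of the genes that passed the filter, scaled with TMM factors. A level of 3 counts, the limit that a count of 0 allows, came to 3.66 to 4.97 CPM in a library. Such limits cover counting error only, since no molecular identifiers tell repeated copies of a molecule apart. The labelled cortex was checked on marker genes, few of which can be read: the excitatory neuron gene Neurod1 had means of 258.2 ± 163.0 CPM (wild type) and 311.1 ± 133.2 CPM (homozygotes; SD, n = 5 each). The 4 readable striatal genes of 14 summed to 889.2 to 6360 CPM in wild type, where animals 3 and 2 were highest, and to 451.0 to 2607 CPM in dTPR1 homozygous libraries, with negative log2 fold changes for all 4 and an unadjusted p under 0.05 in edgeR for Penk (0.031, adjusted p = 0.999). Summed levels overlapped between the genotypes for markers of inhibitory neurons (628.1 to 2261 and 507.5 to 1727 CPM), astrocytes (115.4 to 351.3 and 152.5 to 460.7), oligodendrocytes (1053 to 1894 and 1638 to 2617), microglia (195.4 to 308.4 and 170.0 to 316.6), vessels (212.0 to 943.5 and 217.2 to 330.4) and choroid plexus (12.2 to 206.1 and 0 to 65.8). Olig1, Pdgfra and Cx3cr1 face an ID and had 0 counts in every library.

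Stub1, the ubiquitin ligase that acts on HSP70 and HSP90 clients, gave the most counts of the 6, 1617 to 3215 per library. Its level was 2733, 3181, 2887, 2678 and 3921 CPM in wild-type animals 1 to 5. In dTPR1 homozygous animals 1 to 5 it was 3006, 3375, 3467, 3461 and 3205 CPM. The 5 dTPR1 homozygous libraries lay inside the wild-type range, 4 of them above the wild-type mean, and wild-type animal 5 was the highest of all. The means were 3080 ± 509 CPM in wild type and 3303 ± 197 CPM in the homozygotes (SD, n = 5 each), a log2 fold change of 0.10 ± 0.14 (SE; adjusted p = 0.999 in edgeR's quasi-likelihood test). The 95% interval of the ratio ran from 0.878 to 1.31. Without wild-type animal 5 the log2 fold change was 0.21, and without wild-type animal 4 it was 0.063.

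Dnajc7, the co-chaperone with a J domain, was counted 17 to 85 times per library. Its level was 124.6, 22.9, 115.4, 119.2 and 79.3 CPM in wild-type animals 1 to 5 and 44.1, 90.5, 92.1, 57.8 and 91.3 CPM in dTPR1 homozygous animals 1 to 5. All 5 dTPR1 homozygous libraries lay below the wild-type mean, as did those of 9.41% of the genes tested, but wild-type animal 2 was the lowest of the 10, and the groups overlapped. The means were 92.3 ± 42.7 and 75.2 ± 22.6 CPM (SD, n = 5 each), a log2 fold change of -0.30 ± 0.40 (SE; adjusted p = 0.999 in edgeR). The 95% interval of the ratio ran from 0.452 to 1.47. The log2 fold change was -0.54 without wild-type animal 2, -0.15 without wild-type animal 1 or without dTPR1 homozygous animal 1, -0.18 without wild-type animal 4, and -0.13 in limma-voom. Without wild-type animals 2 and 3 together it was -0.52.

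Cnp, at whose ID Dnajc7 is counted, is itself an abundant gene of myelin. By the reading used here, Cnp transcripts would be counted at the Dnajc7 ID where the exons face each other. Any Cnp reads at the Cnp ID cannot be told apart from Dnajc7. The sum of the oligodendrocyte markers, 4 of 15 with a facing ID, is therefore given beside Dnajc7. Bcas1, the most counted of them, had a log2 fold change of 0.62 ± 0.19 (unadjusted p = 0.0044, adjusted p = 0.999 in edgeR). For Gpr17, the other tested marker, it was 0.25 ± 0.32 (unadjusted p = 0.44 in edgeR). Bcas1 gave 11535 counts, Gpr17 831, and Olig1 and Pdgfra 0, so the sum is mostly the level of Bcas1. The sum was lowest in wild-type animal 2 (1053 CPM), the animal with the lowest Dnajc7 (22.9 CPM), and highest in dTPR1 homozygous animal 4 (2617 CPM), where Dnajc7 was among the lowest (57.8 CPM). The part of these markers in the Dnajc7 values was not tested. Mbp, another myelin gene, has no facing ID and had 45 counts at its own ID in all 10 libraries together. How many of the 567 counts at Cnp come from Cnp itself was not tested. A second stretch of Dnajc7, in exon 1, faces Nkiras2, where 0 to 40 counts were found. Dnajc7 holds 81.5% of the bases facing that ID, which is under the 90% asked for. With these counts added, the log2 fold change of Dnajc7 was -0.15.

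Hsp90b1, the chaperone of the endoplasmic reticulum, was counted 665 to 930 times per library. Its level was 1118, 1140, 1247, 1287 and 1134 CPM in wild-type animals 1 to 5. In dTPR1 homozygous animals 1 to 5 it was 1124, 1452, 1094, 897.0 and 1188 CPM. The dTPR1 homozygous libraries held both the highest value, in animal 2, and the lowest, in animal 4, with the wild-type libraries close together between them. The means were 1185 ± 76 and 1151 ± 200 CPM (SD, n = 5 each), a log2 fold change of -0.043 ± 0.15 (SE; adjusted p = 0.999 in edgeR), with a 95% interval of the ratio from 0.781 to 1.21. Whether the spread itself differs between the genotypes was not tested. Without dTPR1 homozygous animal 4 the log2 fold change was 0.037, and without animal 2 it was -0.13.

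Hsp90b1 is a textbook target of the unfolded protein response, whose factors bind the ER stress element, the letters CCAAT and CCACG with 9 bases of any kind between them. The promoter is shown because this element sets Hsp90b1 apart from the other 5 genes by sequence. In the RefSeq promoters on GRCm38.p6, searched on both strands for these letters at this distance, 39 of 32851 windows of the same length (0.119%) held a match. The Hsp90b1 window held 2 matches, and 0 were found in the windows of the other 5 genes. A heat shock element, searched on both strands as GAA, TTC and GAA with 2 bases of any kind between each, was in 0.603% of all promoters and in none of the windows of the 6 genes, which says only that these letters are not there. The bases upstream of the GENCODE start of Hsp90b1 are chr10:86705510-86705694, minus strand, with the matches in capitals, the first on the strand of the gene and the second on the other.
Hsp90b1 promoter: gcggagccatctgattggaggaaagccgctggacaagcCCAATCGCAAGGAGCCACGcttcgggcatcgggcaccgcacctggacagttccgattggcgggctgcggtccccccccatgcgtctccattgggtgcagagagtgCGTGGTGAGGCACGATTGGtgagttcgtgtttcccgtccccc

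Tcp1, the alpha subunit of the TRiC ring, was counted 246 to 479 times per library at Acat3. Its level was 459.4, 555.3, 636.9, 407.4 and 461.1 CPM in wild-type animals 1 to 5 and 614.5, 608.3, 487.1, 601.8 and 615.3 CPM in dTPR1 homozygous animals 1 to 5. In the dTPR1 homozygous group 4 of 5 libraries lay within 602 to 615 CPM and above the wild-type mean, and animal 3 lay below it, while wild-type animal 3 was the highest of all, so the groups overlapped. The means were 504.0 ± 91.5 and 585.4 ± 55.2 CPM (SD, n = 5 each), a log2 fold change of 0.22 ± 0.16 (SE; adjusted p = 0.999 in edgeR) with the smallest unadjusted p of the 6 genes, 0.21. The 95% interval of the ratio was 0.914 to 1.48. The striatal markers summed to 1156, 4305, 6360, 2777 and 889 CPM in wild-type animals 1 to 5. In dTPR1 homozygous animals 1 to 5 the sums were 838, 1882, 992, 451 and 2607 CPM. Wild-type animals 3 and 2 had the highest Tcp1 of their group and the highest sums. Wild-type animal 4, next in the sum, had the lowest Tcp1 of all, and dTPR1 homozygous animal 4, with the lowest sum, had 601.8 CPM of Tcp1. Without wild-type animals 3 and 2 the log2 fold change was 0.40 (unadjusted p = 0.039 and adjusted p = 0.996 in edgeR). This fit was chosen after the data were seen. Leaving out the 2 highest wild-type values had to raise the fold change, so its p is no test of genotype. The part of the striatal markers in the Tcp1 values was not tested.

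A second ID, Mrpl18, faces 141 bases at the start of Tcp1, chromosome 17, 12915701 to 12916345, which lie only in transcripts other than the principal one. It had 0 counts in each of the 10 libraries, which allows up to 3.66 to 4.97 CPM per library. The counts of Tcp1 thus come from the Acat3 ID, whose exons also cover 447 bases of Tcp1 introns and 1409 bases outside Tcp1.

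Cct7, the eta subunit of the same ring, had the fewest counts of the 6. Wild-type animals 1 to 5 gave 6, 23, 0, 24 and 15 counts. The dTPR1 homozygous animals 1 to 5 gave 14, 12, 2, 35 and 11 counts. The lowest counts, 0 and 2, fell in animal 3 of either genotype, and the highest, 24 and 35, in animal 4. The means were 19.7 ± 16.02 and 20.7 ± 14.7 CPM (SD, n = 5 each), a log2 fold change of 0.087 ± 0.84 (SE; adjusted p = 0.999 in edgeR). The 95% interval of the ratio, 0.310 to 3.64, spans a change of more than 3-fold in either direction. The sign turned with single libraries, to -0.39 without dTPR1 homozygous animal 4, -0.24 without wild-type animal 3 and -0.079 without wild-type animal 1, and leaving out wild-type animal 4, wild-type animal 2 or dTPR1 homozygous animal 3 gave 0.50, 0.32 and 0.36.

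Pfdn2, the prefoldin subunit, was counted 45 to 136 times per library. Its level was 70.1, 153.7, 135.8, 172.2 and 148.8 CPM in wild-type animals 1 to 5 and 166.4, 216.0, 118.5, 147.0 and 152.6 CPM in dTPR1 homozygous animals 1 to 5. Wild-type animal 1 was the lowest and dTPR1 homozygous animal 2 the highest, and the other 8 libraries of both groups were interspersed. The means were 136.1 ± 39.2 and 160.1 ± 35.8 CPM (SD, n = 5 each), a log2 fold change of 0.23 ± 0.27 (SE; adjusted p = 0.999 in edgeR), with a 95% interval of the ratio from 0.795 to 1.74. Without wild-type animal 1 the log2 fold change was 0.081, and without dTPR1 homozygous animal 2 it was 0.11.

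**Figure D2:**
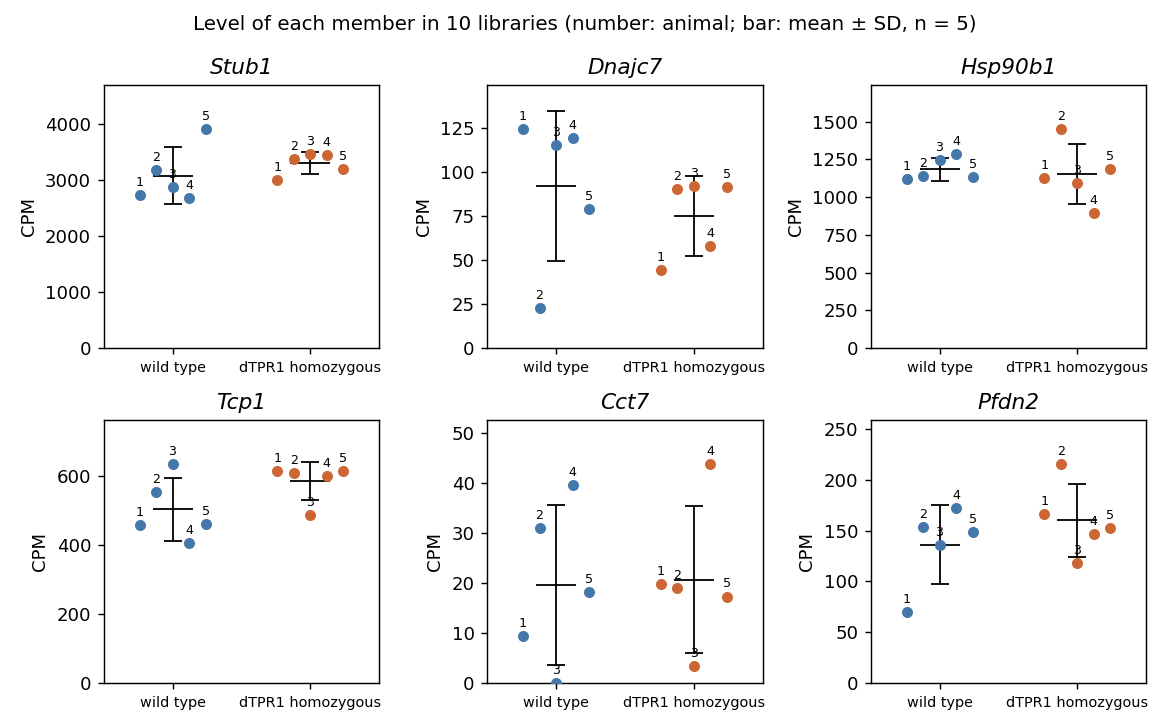
Level of each of the 6 genes in CPM (y axis, from 0) in the 5 wild-type and 5 dTPR1 homozygous libraries; points are libraries numbered by animal, and bars give the mean ± SD. The groups overlap for every gene, and for Tcp1 dTPR1 homozygous animals 1, 2, 4 and 5 lie between 602 and 615 CPM.

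Over all 6 genes, 0 had an adjusted p under 0.05 (0% of all tested genes) and 0 reached 0.05 before adjustment in edgeR, where 2.82% of the 2020 opposite-strand genes did. DESeq2 and limma-voom also called 0 of the 6. Positive fold changes were found for 4 of the 6 (Stub1, Tcp1, Pfdn2 and Cct7), where 50.2% of all tested genes had one, and the median absolute log2 fold change over all tested genes was 0.25, above the absolute value of 5 of the 6. In 3 of the 6 (Stub1, Tcp1 and Pfdn2), 4 of 5 dTPR1 homozygous libraries lay above the wild-type mean; 22.3% of all tested genes had 4 or 5 such libraries. All 5 lay above it for 0 of the 6 and for 6.09% of all tested genes, and all 5 below it for 1 of the 6 (Dnajc7) and for 9.41% of all tested genes. Groups without overlap were found for 0 of the 6 and for 0.347% of all tested genes. In the fit of the 3027 IDs as deposited, the 6 IDs that carry the counts gave 0 calls (0% of IDs), 0 at an unadjusted p under 0.05 (2.54% of IDs) and 4 positive fold changes (52.1% of IDs).

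The precision differed widely between the 6 genes. The SE of the log2 fold change was 0.14 for Stub1, 0.15 for Hsp90b1, 0.16 for Tcp1, 0.27 for Pfdn2, 0.40 for Dnajc7 and 0.84 for Cct7, in the order of their counts, beside a median of 0.42 over all tested genes. For Stub1 the SD between libraries was 509 CPM in wild type, beside 65.8 CPM from counting alone. In Hsp90b1 the wild-type SD of 76.2 CPM stood against a counting SD of 41.1 CPM, and in dTPR1 homozygous libraries 200.2 against 41.4 CPM. For Tcp1 the values were 91.5 against 26.6 CPM in wild type and 55.2 against 29.5 CPM in dTPR1 homozygous libraries, and for Cct7 16.02 against 4.62 CPM and 14.7 against 5.16 CPM. For Dnajc7 they were 42.7 against 11.2 CPM and 22.6 against 10.5 CPM. For Pfdn2 they were 39.2 against 13.8 CPM and 35.8 against 15.4 CPM. With 1 library per animal, differences between animals and between library preparations cannot be told apart in these SDs.

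Per length of shared bases, the order of the levels was Stub1, Hsp90b1, Tcp1, Dnajc7, Pfdn2 and Cct7. Stub1 stood at 2944 CPM per shared kilobase (2471 to 3617 over the 10 libraries) and Hsp90b1 at 2815 (2161 to 3498), which overlap. Tcp1 followed at 953.96 (713.5 to 1115), without overlap with either. Dnajc7 stood at 543.7 (148.8 to 809.0), overlapping with Tcp1 in its highest libraries, Pfdn2 at 276.9 (131.0 to 403.8) and Cct7 at 94.4 (0 to 205.5), each overlapping with its neighbour in the order. Since reads beyond the shared bases are counted too, and the stretches lie at different places of the mRNA, these values order the measured stretches and not the transcripts.

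On the other strand of the same loci the own IDs of the 6 genes were counted too. The Stub1 ID, opposite to Jmjd8, had 134 to 401 counts per library, with 401 in wild-type animal 5, which was also highest at Jmjd8. The Hsp90b1 ID had 0 to 5 counts, the Pfdn2 ID 10 to 31, the Tcp1 ID 15 to 110 and the Cct7 ID 0 to 15. The Dnajc7 ID, which faces Cnp and Nkiras2, had 30 to 102 counts, 683 in sum against 567 at Cnp and 213 at Nkiras2.

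The rest of the folding machinery could be read only in part. Of 180 genes in the lists of chaperones, co-chaperones, chaperonins, prefoldin and folding helpers, small heat shock proteins and folding in the endoplasmic reticulum, 50 had a facing ID and 22 passed the filter, the 6 genes among them. Of these 22, 0 had an adjusted p and 0 an unadjusted p under 0.05 in edgeR, 10 had a positive fold change, and the median log2 fold change was -0.012, beside 0.0025 over all 2020 tested genes. DESeq2 and limma-voom called 0 of all tested genes as well.

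Among 37 HSP90 co-chaperones 5 were tested and 0 passed in either direction. Beside Stub1 and Dnajc7 these were Nudcd3, a co-chaperone that helps fold motor proteins, with means of 50.4 and 59.3 CPM (log2 fold change 0.24 ± 0.36), Ahsa2, a relative of the HSP90 activator AHA1, with a log2 fold change of -0.29 ± 0.67, and Unc45b, a myosin chaperone of muscle, with -0.15 ± 0.90. Hsp90b1 was the 1 tested gene of 19 HSP90 and HSP70 chaperones.

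Of 48 HSP70 co-chaperones, 6 were tested, 1 with a positive fold change, and 0 passed. Dnaja4, which encodes a J protein, had a mean of 1253 CPM in wild type and 1249 CPM in homozygotes, a log2 fold change of -0.0048 ± 0.15. Dnajc30, a J protein of mitochondria, was at 1037 and 999.4 CPM (-0.053 ± 0.17). The smallest p of the list belonged to Dnajc19, a J protein of the mitochondrial import motor (log2 fold change -0.90 ± 0.81), and Dnajc1 of the endoplasmic reticulum (-0.47 ± 0.56), both of low counts.

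Of 15 chaperonin genes 3 were tested and 0 passed: Tcp1, Cct7 and Cct8, the theta subunit of TRiC, with means of 65.0 and 64.3 CPM (log2 fold change -0.020 ± 0.41). All 3 tested genes of the 19 prefoldin and chaperonin helpers had positive fold changes and 0 passed: Pfdn2, Tbcb at 0.83 ± 0.65 and Tbcd at 0.12 ± 0.41, the last 2 being folding cofactors of tubulin. The small heat shock protein gene Hspb2, 1 tested of 13, was at 0.44 ± 0.92. Of 30 genes of folding in the endoplasmic reticulum 3 were tested and 0 passed: Ppib, a prolyl isomerase, at 997.2 and 962.4 CPM (-0.051 ± 0.17), Eif2ak3, the sensor kinase PERK, at 0.084 ± 0.42, and Sdf2 at -0.51 ± 0.69.

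**Figure D3:**
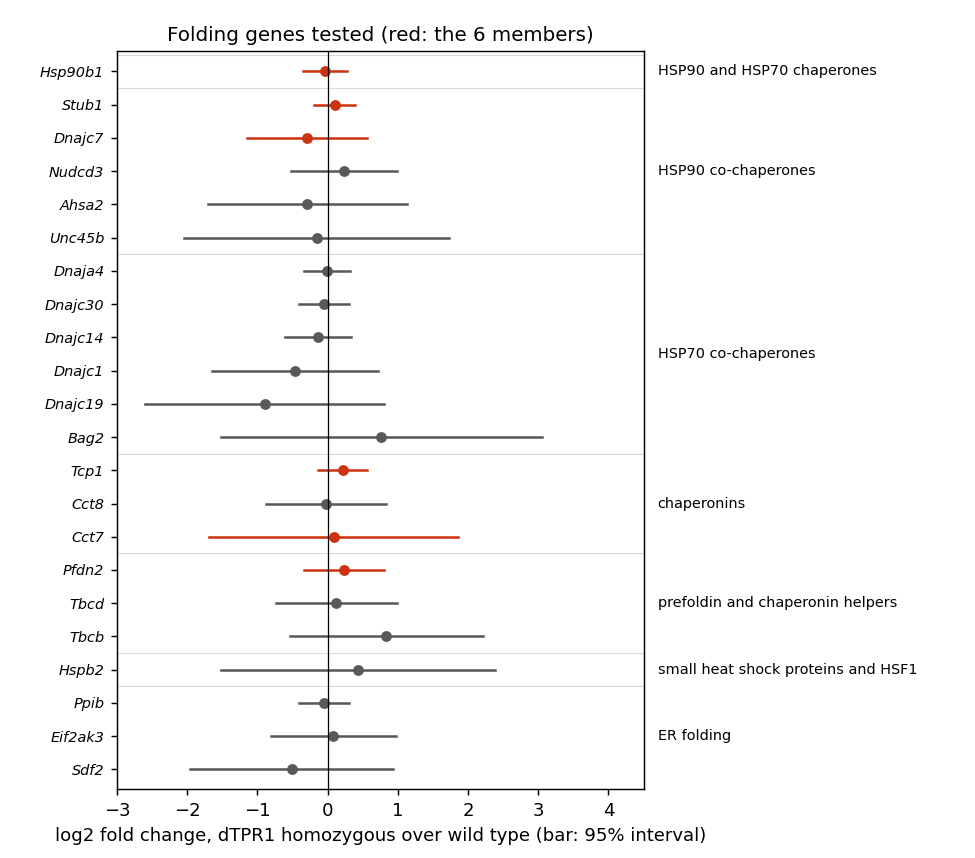
Log2 fold change of dTPR1 homozygous over wild type (x axis) with its 95% interval for the 22 folding genes tested, by list, the 6 genes described here in red. Every interval includes 0, and those of Stub1, Hsp90b1, Tcp1, Dnaja4, Dnajc30 and Ppib are the narrowest.

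The genes whose log2 CPM was most like that of each of the 6 over the 10 libraries were found among 2019 others. They are a description, since the highest of so many coefficients over 10 libraries is high by selection. For Stub1 they were Ftl1, the ferritin light chain (Pearson r = 0.89, Spearman rho = 0.92), and Rab24 (0.86 and 0.90). For Dnajc7 they were Kbtbd4 (0.89 and 0.83) and St7 (0.86 and 0.81), and for Tcp1 Tssk6 (0.87 and 0.87) and Pcdh8 (0.84 and 0.73). For Hsp90b1 they were Ankrd34b, with r = 0.87 but rho = 0.44, and Lipe (0.82 and 0.76). Pfdn2 was most like 2310047D07Rik (0.87 and 0.81) and Gm16066 (0.87 and 0.56), and Cct7 most like Rmi1 (0.86 and 0.71) and Fam84b (0.86 and 0.78). None of the 12 was another of the 6 genes or of the folding lists.

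**Figure D4:**
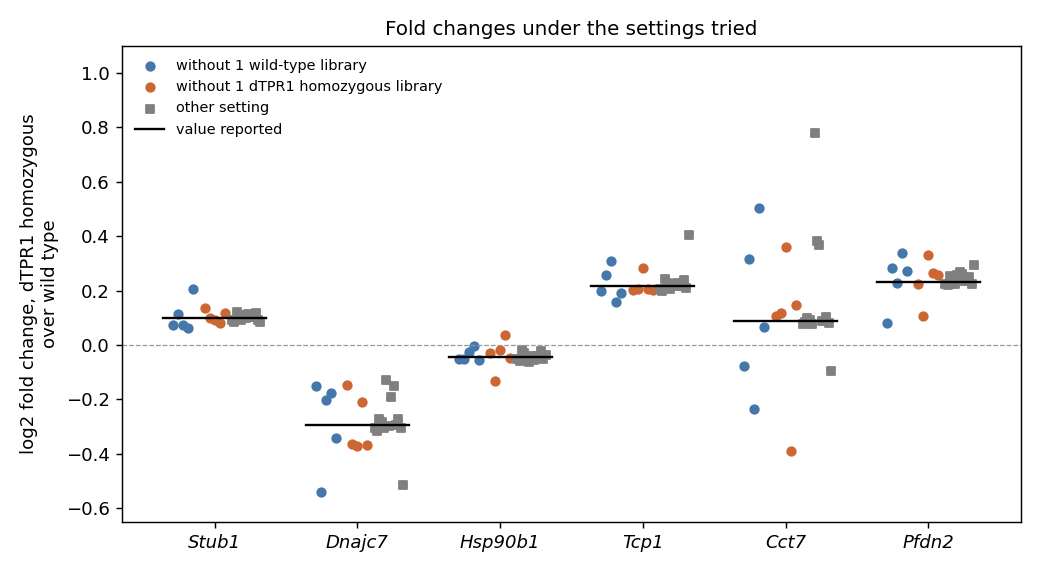
Log2 fold change of each of the 6 genes (y axis, dTPR1 homozygous over wild type) as reported (line), without each single library (circles, coloured by the genotype left out) and under the other settings (squares). Stub1, Tcp1 and Pfdn2 stay above 0 and Dnajc7 below 0 in all of them, while Hsp90b1 (-0.13 to 0.037) and Cct7 (-0.39 to 0.78) take both signs.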

How the data were processed

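RNA of 10 cortex samples was sequenced from single-end libraries of the SENSE Total RNA-Seq kit after TRIzol extraction, per the labels. The values deposited by the authors are raw read counts per Ensembl gene ID (53090 IDs, 0 rows naming no gene); TopHat, HTSeq and DESeq2 with GRCm38.p5 are named in the submitters' processing notes, and versions and strand setting are not given in the sources used here. Symbols and positions came from GENCODE M21 (52403 IDs found). Counts of 8188 IDs were summed over 7387 opposite-strand genes (88.0% of counts). They were fitted with edgeR 4.0.16 in R 4.3.3: filterByExpr on group, TMM, robust quasi-likelihood, no covariate, Benjamini-Hochberg over the 2020 genes tested, threshold 0.05. Intervals are 95%. The fit was tested on data simulated with the dispersions estimated here. It called 10.9% of genes changed 1.5-fold, 19.7% of those changed 2-fold and 69.9% of those changed 4-fold. Of unchanged genes it called 0.36%. These shares are over all tested genes, so the 0 calls over all of them do not exclude changes of such sizes. For each of the 6 genes its own 95% interval of the ratio applies. The intervals of Stub1 (0.878 to 1.31), Hsp90b1 (0.781 to 1.21) and Tcp1 (0.914 to 1.48) do not reach a 1.5-fold change in either direction. DESeq2 1.42.0, limma 3.58.1 (voom), other scalings, filters and assignments, age, animal number and left-out libraries were alternatives. Log2 CPM for the most alike genes used a prior count of 2. The genes named were the 6, the IDs that carry their counts, Stip1, the 2 most alike genes of each, and the tested genes of each list (where over 5, the 2 with the smallest p and the 2 with most counts). For marker lists sums over the listed genes with a facing ID are given in their place, and for excitatory neurons 1 gene. Some values and a sequence are not reported here. Genes given beside the missing chaperones to show counts without a facing ID were chosen after their values were seen. The members and lists were chosen with earlier results of these data known. Nothing says beyond the animal number that samples were taken independently, so p-values measure the spread between these animals' samples. No pair of libraries of a group agreed within counting noise (chi-square per degree of freedom 10.6 to 32.2). Among the homozygotes, pairs with animal 2 gave 24.2 to 32.2 and the other pairs 10.6 to 16.2. In wild type, pairs of animal 2 or 3 with animal 1, 4 or 5 gave 21.5 to 30.7 and the other pairs 12.2 to 16.4.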

Additional observations from a re-analysis of the deposited data

Results flagged for a closer look

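Tcp1 in dTPR1 homozygous animal 3, at 487.1 CPM, lay far below the other 4 animals of its group, of which the nearest was at 601.8 CPM. In all 18 groups of 5 values were examined in this way, the 6 genes, the library total, the number of IDs counted and the share of counts at mt-Nd6 in either genotype, and 1 stood apart, where chance alone gives about 1 in 20. Without this animal the log2 fold change of Tcp1 was 0.28 (adjusted p = 1.000 in edgeR).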

How the results depend on the processing

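The 0 calls over opposite-strand genes held under DESeq2 and limma-voom, with age, a filter of 1 CPM in 5 libraries (3279 genes tested) and 2 other scalings, with 50% or all of the facing bases, the IDs as deposited, and each library left out (0 to 0). Without a filter on low counts edgeR called 2 of 5178 genes, Fam184b and Prox1os, neither of them a folding gene. The cause was not tested. Leaving out mitochondrial IDs, or wild-type animals 2 and 3, was chosen after seeing the data and gave 0 calls. Before adjustment, 45 to 543 genes reached 0.05, against 57 as reported. The replicate block, animal number in the model, gave 0 calls and 51 before adjustment, and log2 fold changes of 0.11 for Stub1, -0.19 for Dnajc7, -0.057 for Hsp90b1, 0.23 for Tcp1, 0.26 for Pfdn2 and 0.37 for Cct7. Deviations of same-numbered animals from their group means had correlations of -0.11 to 0.097, and 2 of 5 wild-type animals were most like their own number. Low correlations over many noisy genes cannot decide whether the numbers pair animals, and the sources used here do not say. Of the 23 alternatives, all kept the sign for Stub1, Dnajc7, Tcp1 and Pfdn2. It turned for Hsp90b1 in 1 (0.037 without dTPR1 homozygous animal 4; -0.13 to 0.037 over left-out libraries) and for Cct7 in 4 (-0.39 to 0.50 over left-out libraries, and -0.097 without wild-type animals 2 and 3). Cct7 was at 0.78 in limma-voom and 0.38 with age. Cct7 and Dnajc7, with the fewest counts, have the widest intervals.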

Other observations

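Other folding genes with a facing ID were counted too rarely to be tested. Hspa1a, the stress-induced HSP70, had 0 to 15 counts per library, Hspe1, the mitochondrial co-chaperonin, 0 to 25, and its partner Hspd1 1 count in all 10 libraries. Pdia6 and Pdia3, disulfide isomerases of the endoplasmic reticulum, had 0 to 16 and 0 to 21 counts, and Fkbp8, an HSP90-binding immunophilin, 0 to 16. Dnajb9, Dnajc13 and Hspb6 had 0 counts in every library.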
